A study of Mus musculus with 2 samples.

Results

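The 34 genes described here encode the B cell antigen receptor signalling chains, the kinases, adaptors and effectors that carry the signal inward, and the receptors and phosphatases that restrain it. They were taken by gene name from the 23288 genes of the deposited tables, and all 34 were present in both libraries. RNA was measured in 1 library from Nedd4-/- splenic B cells and 1 library from Nedd4+/+ splenic B cells, both from fetal liver chimeric mice (recipients given donor fetal liver cells) and both on the strain background labelled B6:129-backcrossed to B6. Nedd4 encodes a HECT-class ubiquitin ligase. Both cultures received, over 72 hours, lipopolysaccharide (LPS), which activates B cells through a Toll-like receptor, and interleukin 4, a combination that drives switching to IgG1. No antigen or receptor crosslinking is named in the labels, so the levels given here are those of LPS-activated cells. The labels do not say how many animals gave cells. With 1 library per genotype, differences cannot be set against replicate spread, and p-values are not given.

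The antigen receptor signals through CD79A and CD79B, whose cytoplasmic tyrosines are phosphorylated by LYN and then bind SYK. SYK acts on the adaptor BLNK, which gathers BTK, VAV1 and PLCG2 and opens calcium, protein kinase C and Ras pathways that end on NF-kappaB and NFAT. CD22, CD72, Siglec-G and the Fc receptor FcgRIIB carry inhibitory tyrosine motifs that recruit the phosphatases SHP-1 or SHIP-1 and damp the same signal.

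Levels are RPKM (reads for each kb of a transcript, adjusted for library depth), and log2 ratios are Nedd4-/- over Nedd4+/+ with 1 RPKM added to both, which understates the difference of low genes. A gene was tested where its mean was 1 RPKM or more and called where it differed by at least 2-fold. Depth, recovered from the steps in the values, was 6.17 gigabases for Nedd4-/- and 8.40 gigabases for Nedd4+/+. Over 9405 tested genes the median log2 ratio was -0.31, and 92.7% of them were lower in Nedd4-/-. A relative value below is a log2 ratio minus that median, and the central 90% of all tested genes had relative values from -0.43 to 0.37. Transcripts of known length held 24.4% of the read bases in the Nedd4-/- library and 32.6% in the Nedd4+/+ library, and genes with a mean under 0.5 RPKM had a median of 0.244 RPKM in Nedd4-/- and 0.117 RPKM in Nedd4+/+. Nedd4 itself stood at 1.95 RPKM in Nedd4-/- and 7.59 RPKM in Nedd4+/+ cells, a log2 ratio of -1.54. The B cell markers Cd74, Ms4a1 and Pax5 were at 650, 112 and 24.5 RPKM in Nedd4-/- cells and at 758, 150 and 35.6 RPKM in Nedd4+/+ cells.

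The libraries also differed in sex-linked transcripts, whose part in the results was not tested. Xist was at 0.0958 RPKM in the Nedd4-/- library and 23.7 RPKM in the Nedd4+/+ library. The Y-linked genes Ddx3y and Eif2s3y were at 10.6 and 18.8 RPKM in Nedd4-/-, against 2.63 and 5.14 RPKM in Nedd4+/+. The effects of genotype and of this difference cannot be told apart in any value below.

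Of 33 members tested, 4 were at least 2-fold lower in Nedd4-/- cells, where 1.15% of all tested genes were, and 0 were at least 2-fold higher, where 0.138% of all were. The 4 were the adaptors Sla and Bank1 and the Fc receptor-like genes Fcrl1 and Fcrl5. Relative to the median of all genes, Sla and Bank1 were at least 2-fold lower, against a background of 0.223%, and Cd72 was at least 2-fold higher, against a background of 0.276%. At a smaller fold of 1.5, relative to the median, 6 members were lower and 1 was higher, where 2.05% and 1.23% of all genes were. The 6 were Sla, Bank1, Fcrl5, Fcrl1, Syk and Lyn. As deposited, 12 members were at least 1.5-fold lower, where 11.6% of all genes were. The median log2 ratio of the members was -0.48, or -0.17 relative to all genes, with 23 members below the median of all genes and 10 above it. The remaining member, Cr2, had a mean under 1 RPKM. Members were chosen with earlier results of these data known, and the part of that choice in these counts was not tested.

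**Figure D1:**
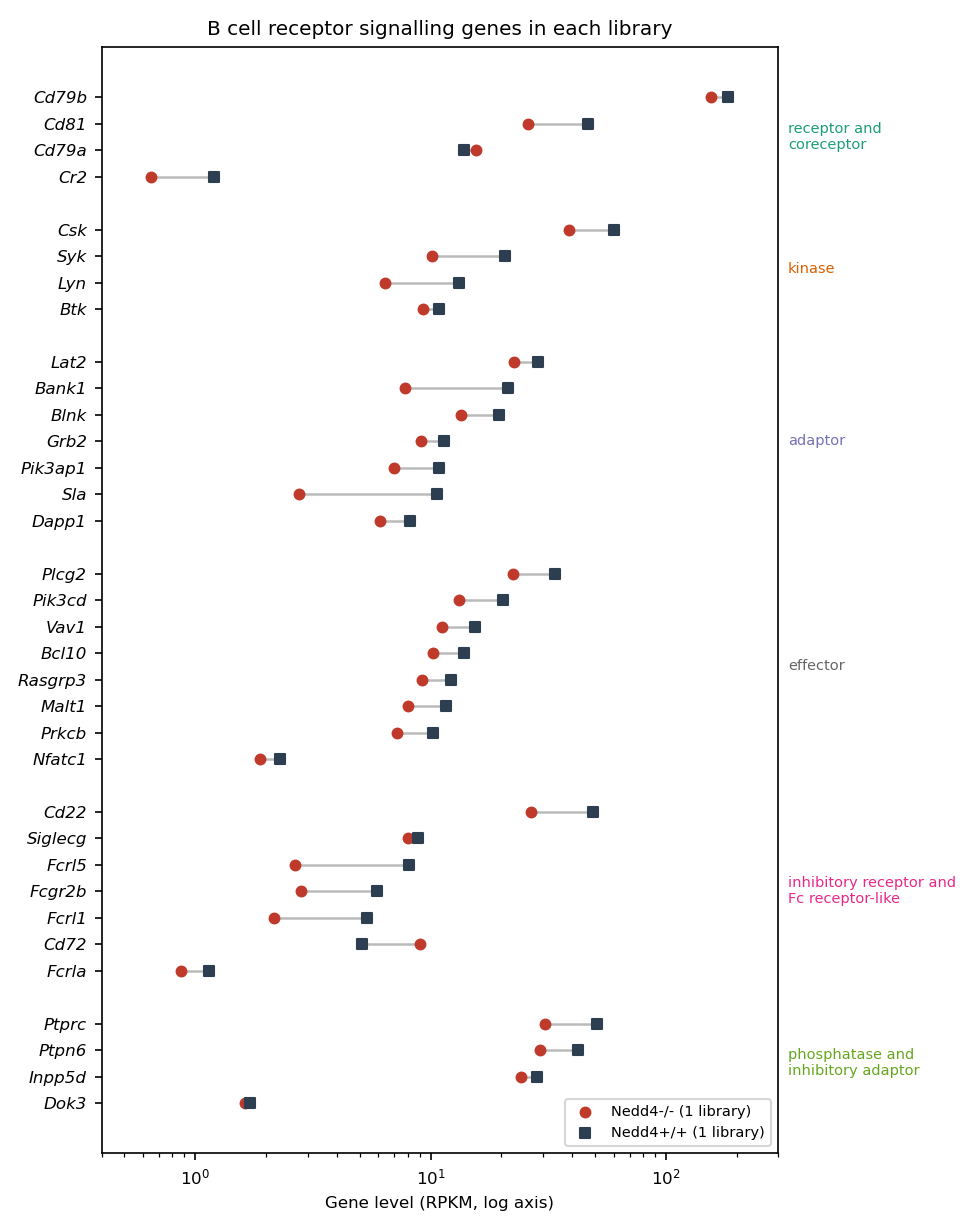
Level of each of the 34 genes in RPKM on a log axis, by role, with a circle for the Nedd4-/- library and a square for the Nedd4+/+ library (1 library each). The circle lies left of the square for 32 genes, widest for Sla, Fcrl5 and Bank1, and right of it for Cd72 and Cd79a.

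The promoters of 4 members with large relative values, 3 low and 1 high, are shown here (that of Sla is not), since the kb upstream of each gene was measured as well. Each runs from 250 bases before to 50 bases after the gene's start, from RefSeq on build GRCm38.p6, 5′ to 3′ on the gene's strand. Capitals mark exact matches, on either strand, to 4 motifs of B cell and core promoters. The letters of the TATA box were searched as TATAAA, at any distance from the start. The core bound by PU.1, a factor of B and myeloid cells, was searched as GAGGAA. The octamer bound by the OCT factors of B cells was searched as ATGCAAAT. The E box bound by E2A, a factor of early B cells, was searched as CAGGTG. Cd72 is on the minus strand at chr4:43454577-43454876, Bank1 on the minus strand at chr3:136326017-136326316, Fcrl1 on the plus strand at chr3:87376137-87376436 and Fcrl5 on the plus strand at chr3:87435532-87435831.
Cd72: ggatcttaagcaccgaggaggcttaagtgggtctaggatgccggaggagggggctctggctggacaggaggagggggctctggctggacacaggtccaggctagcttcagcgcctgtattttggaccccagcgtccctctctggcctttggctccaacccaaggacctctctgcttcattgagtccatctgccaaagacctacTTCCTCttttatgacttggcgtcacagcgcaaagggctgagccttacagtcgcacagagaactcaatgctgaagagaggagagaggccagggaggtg
Bank1: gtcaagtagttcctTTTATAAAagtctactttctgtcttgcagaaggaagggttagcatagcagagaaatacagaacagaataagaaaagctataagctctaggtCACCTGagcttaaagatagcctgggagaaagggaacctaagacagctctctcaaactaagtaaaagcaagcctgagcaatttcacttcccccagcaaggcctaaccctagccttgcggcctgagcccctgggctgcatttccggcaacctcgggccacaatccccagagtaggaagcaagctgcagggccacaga
Fcrl1: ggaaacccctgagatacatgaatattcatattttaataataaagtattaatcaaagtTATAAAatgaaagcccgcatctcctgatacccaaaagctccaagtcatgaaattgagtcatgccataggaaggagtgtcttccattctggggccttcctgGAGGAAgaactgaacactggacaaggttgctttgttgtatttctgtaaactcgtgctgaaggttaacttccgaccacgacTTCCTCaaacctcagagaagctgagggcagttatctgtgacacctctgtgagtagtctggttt
Fcrl5: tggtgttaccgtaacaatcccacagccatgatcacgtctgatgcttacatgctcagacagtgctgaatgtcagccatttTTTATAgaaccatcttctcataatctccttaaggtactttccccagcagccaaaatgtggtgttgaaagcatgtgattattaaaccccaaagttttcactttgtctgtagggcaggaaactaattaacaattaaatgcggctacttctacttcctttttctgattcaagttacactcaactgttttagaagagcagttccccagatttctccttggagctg

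Bank1, Fcrl1 and Fcrl5 each held a match to the TATA box letters, in Bank1 overlapping on both strands, and Cd72 held none. These matches begin 236, 193 and 171 bases before the start in Bank1, Fcrl1 and Fcrl5, far upstream of where a working TATA box lies. Cd72 held 1 match to the PU.1 core and Fcrl1 held 2. Of 28 members with a promoter in the table, 8 held a TATA box match and 14 a PU.1 core match, counting any promoter of a gene, while 13.6% and 28.3% of all 32851 promoters did. An E box was found in 13 members and 20.2% of all promoters, and an octamer in 2 members (Blnk and Prkcb) and 1.74% of all. A match is a description of these windows only, and genes with several promoters had more chances of one. The motifs were chosen with results known. A motif of the B cell factor EBF was also searched at first and then left out, and few members matched it.

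The antigen receptor chains stood above the median of all genes. Cd79b was the most abundant member in both libraries, at 155 RPKM in Nedd4-/- cells and 183 RPKM in Nedd4+/+ cells, a log2 ratio of -0.24 and a relative value of 0.07. Cd79a, its partner chain, was at 15.6 RPKM in Nedd4-/- and 13.9 RPKM in Nedd4+/+ cells, a log2 ratio of 0.15. It was 1 of only 2 members with the higher level in Nedd4-/-, and 97.7% of all tested genes had a lower ratio. The proteins pair with each other, yet per length the Cd79b transcript was 9.96 times the level of Cd79a in Nedd4-/- and 13.2 times in Nedd4+/+ cells, on the 1 transcript deposited for each.

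The coreceptor genes were lower. Cd81, a tetraspanin of the coreceptor complex, was at 25.9 RPKM in Nedd4-/- and 46.4 RPKM in Nedd4+/+ cells, a log2 ratio of -0.82 and a relative value of -0.50, outside the central 90% of all tested genes. Minus the median of tested genes within 2-fold in level, its log2 ratio was -0.41. Of those genes 6.91% had a lower ratio, so it lay inside their central 90%. Cr2, which encodes the complement receptor CD21 of mature B cells, was low in both, at 0.646 RPKM in Nedd4-/- and 1.21 RPKM in Nedd4+/+ cells. Without a pseudocount, the ratio of Cr2 to Cd81 was 0.0249 in Nedd4-/- and 0.0260 in Nedd4+/+ cells. With 1 RPKM added to each, the same comparison gave a log2 difference of 0.39. Cr2 was not tested, and its counting interval ran from -1.22 to -0.60. Genes with a mean under 0.5 RPKM had medians of 0.244 RPKM in Nedd4-/- and 0.117 RPKM in Nedd4+/+, not far below it, so the size of its difference is uncertain.

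Among the kinases, the pair that starts the signal was lower and the others less so. Syk, the kinase that docks on the phosphorylated chains, was at 10.2 RPKM in Nedd4-/- and 20.8 RPKM in Nedd4+/+ cells, a log2 ratio of -0.96 (relative -0.65). Lyn, the Src-family kinase that phosphorylates the chains and also the inhibitory receptors, was at 6.39 RPKM in Nedd4-/- and 13.2 RPKM in Nedd4+/+ cells, a log2 ratio of -0.94 (relative -0.63). Only 1.37% and 1.52% of all tested genes had a lower ratio than Syk and Lyn, both of which stopped just short of the 2-fold rule. Csk, which inhibits Src-family kinases, was the most abundant of the kinases, at 38.6 RPKM in Nedd4-/- and 60.1 RPKM in Nedd4+/+ cells (-0.63). Its ratio to Lyn was 6.04 in Nedd4-/- and 4.56 in Nedd4+/+ cells, and 97.8% of tested genes stood higher against Lyn in Nedd4-/-. Btk, the Tec-family kinase that activates PLCG2, was nearly level, at 9.30 RPKM in Nedd4-/- and 10.9 RPKM in Nedd4+/+ cells (-0.21). Btk is on chromosome X, where 282 tested genes had a median log2 ratio of -0.32.

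The adaptors held the members furthest below other genes. Sla, which encodes SLAP, an adaptor that targets antigen receptor complexes for degradation, was at 2.77 RPKM in Nedd4-/- and 10.6 RPKM in Nedd4+/+ cells, a log2 ratio of -1.63 (relative -1.31). Without the pseudocount the Nedd4-/- level was 0.260 times that of Nedd4+/+, and the counting interval of the log2 ratio ran from -2.15 to -1.75. Bank1, a scaffold that links LYN to calcium release, was at 7.80 RPKM in Nedd4-/- and 21.4 RPKM in Nedd4+/+ cells, a log2 ratio of -1.35 (relative -1.04, counting interval without pseudocount -1.57 to -1.34). Of all tested genes, 0.0957% had a lower ratio than Sla and 0.181% a lower ratio than Bank1. Sla lies within Tg, on the other strand, and shares no exon bases with it.

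The other adaptors were close to the bulk of genes. Blnk, the central adaptor for BTK and PLCG2, was at 13.4 RPKM in Nedd4-/- and 19.5 RPKM in Nedd4+/+ cells (-0.51), and Pik3ap1, an adaptor to phosphoinositide 3-kinase, was at 7.01 RPKM in Nedd4-/- and 10.9 RPKM in Nedd4+/+ (-0.57). Dapp1, which binds the lipids made by that kinase, was at 6.09 RPKM in Nedd4-/- and 8.14 RPKM in Nedd4+/+ cells (-0.37), and Grb2, an adaptor to Ras, at 9.09 RPKM in Nedd4-/- and 11.4 RPKM in Nedd4+/+ (-0.30). Relative values of these 4 ran from -0.26 to 0.01, inside the central 90% of genes. Lat2, a membrane adaptor, was at 22.7 RPKM in Nedd4-/- and 28.7 RPKM in Nedd4+/+ cells (-0.33). In the annotation 55.4% of its exon bases overlap Rfc2 on the other strand, itself at 19.8 RPKM in Nedd4-/- and 24.9 RPKM in Nedd4+/+, and with the strand setting unknown their reads cannot be told apart. Within a library, Bank1 stood at 0.581 times Blnk in Nedd4-/- and 1.10 times Blnk in Nedd4+/+ cells, so the order of these scaffolds differed between the libraries.

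**Figure D2:**
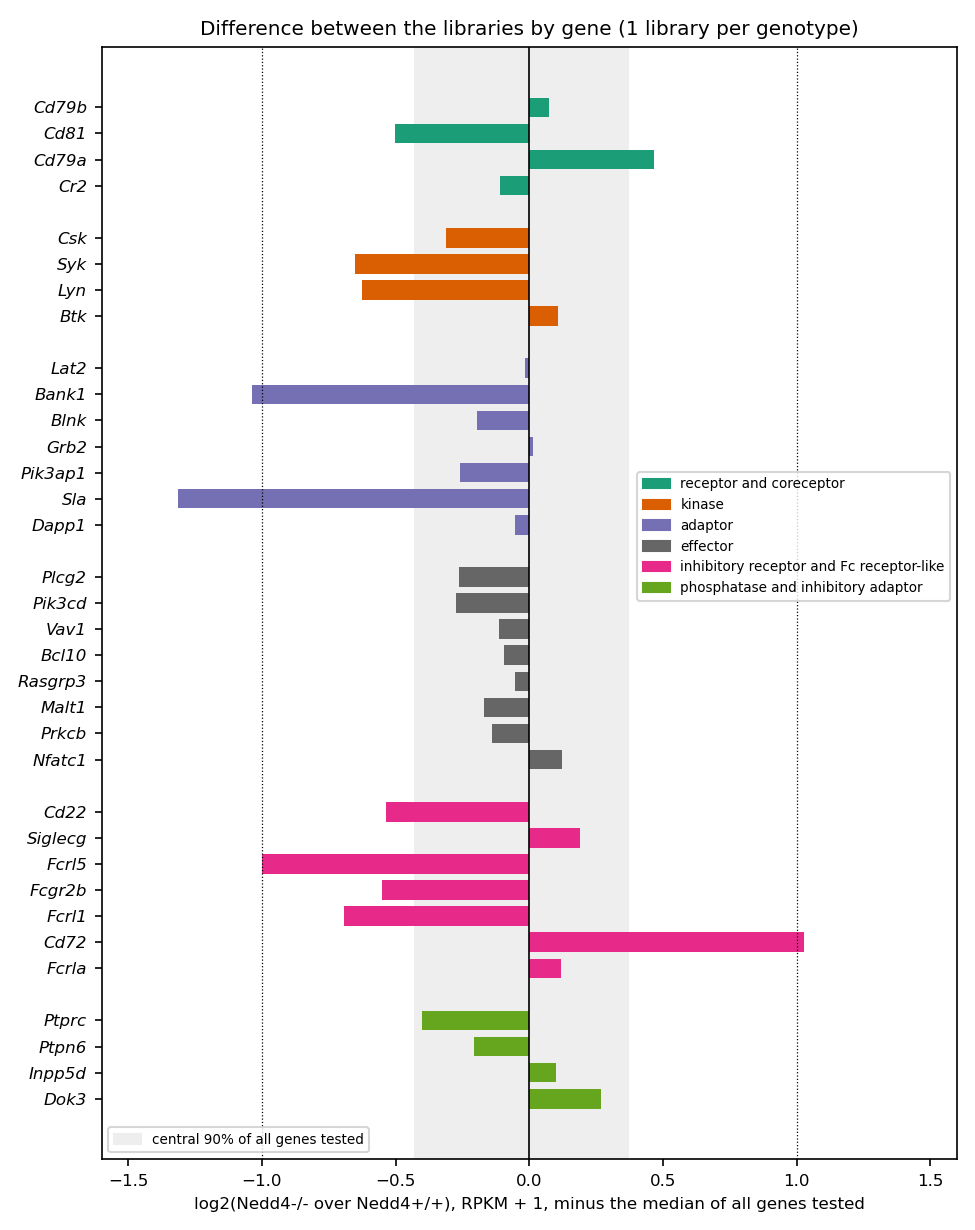
Log2 ratio of each member (Nedd4-/- over Nedd4+/+, RPKM + 1) minus the median of all tested genes, coloured by role, with dotted lines at 2-fold and the central 90% of all tested genes shaded. Sla and Bank1 pass the lower line, Fcrl5 ends at it with -0.999, Cd72 passes the upper line with 1.03, and the 8 effectors all lie in the shaded range.

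The effectors downstream of the adaptors formed the narrowest group. All 8 were lower in Nedd4-/- as deposited, with log2 ratios from -0.59 to -0.19 and a median of -0.44, and with relative values from -0.27 to 0.12. Plcg2, the phospholipase that produces the calcium and diacylglycerol signals, was the most abundant, at 22.4 RPKM in Nedd4-/- and 33.9 RPKM in Nedd4+/+ cells (-0.58). Pik3cd, the catalytic subunit of the leukocyte phosphoinositide 3-kinase, was at 13.2 RPKM in Nedd4-/- and 20.4 RPKM in Nedd4+/+ cells (-0.59). None of the effectors passed the 2-fold rule under either scaling.

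The effectors on each branch stood close together. Vav1, an exchange factor for Rac, was at 11.2 RPKM in Nedd4-/- and 15.4 RPKM in Nedd4+/+ cells, and Rasgrp3, an exchange factor for Ras, at 9.21 RPKM in Nedd4-/- and 12.2 RPKM in Nedd4+/+ (-0.43 and -0.37). Prkcb, the protein kinase C of this pathway, was at 7.18 RPKM in Nedd4-/- and 10.2 RPKM in Nedd4+/+ cells (-0.45). Its partners towards NF-kappaB were similar, with Bcl10 at 10.2 RPKM in Nedd4-/- and 13.9 RPKM in Nedd4+/+ cells (-0.41) and Malt1, the paracaspase of that complex, at 8.02 RPKM in Nedd4-/- and 11.6 RPKM in Nedd4+/+ (-0.48). Nfatc1, the calcium-responsive transcription factor, was at 1.88 RPKM in Nedd4-/- and 2.28 RPKM in Nedd4+/+ cells (-0.19).

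The inhibitory receptors and Fc receptor-like genes, taken as 1 role, were the most divided group, with relative values from -0.999 (Fcrl5) to 1.03 (Cd72). Cd72, an inhibitory receptor for class 4 semaphorins and for RNA-protein autoantigens, was at 9.04 RPKM in Nedd4-/- and 5.12 RPKM in Nedd4+/+ cells, a log2 ratio of 0.71 (relative 1.03). Without the pseudocount its counting interval was 0.60 to 1.04 on the log2 scale, from 392 read pairs in Nedd4-/- and 302 in Nedd4+/+, and 99.7% of all tested genes had a lower ratio. By level it ranked 19 among the 34 members in Nedd4-/- cells and 30 in Nedd4+/+ cells. In the annotation 21.3% of its exon bases overlap Tesk1 on the other strand, which was at 1.67 RPKM in Nedd4-/- and 1.02 RPKM in Nedd4+/+ cells (relative 0.71). On its other side, the nearest tested gene, Sit1, had a relative value of 0.11 and the next, Rmrp, a noncoding RNA gene, 0.76.

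Cd22, the sialic acid-binding inhibitor of the antigen receptor, was the most abundant inhibitory receptor, at 26.8 RPKM in Nedd4-/- and 49.1 RPKM in Nedd4+/+ cells (-0.85, relative -0.53). Of tested genes within 2-fold in level, 5.75% had a lower ratio than Cd22. In the annotation 14.3% of its exon bases overlap Gm29439 on the other strand, which has no level here. The same holds for 7.03% of Lyn, with Gm26857, and 8.79% of Ptpn6, with Gm20531. Siglecg, a relative of Cd22, was at 8.03 RPKM in Nedd4-/- and 8.83 RPKM in Nedd4+/+ cells (-0.12, relative 0.19). The ratio of Siglecg to Cd22 within a library was 0.299 in Nedd4-/- and 0.180 in Nedd4+/+ cells, and 94.9% of tested genes stood higher against Cd22 in Nedd4-/-. Fcgr2b, the low-affinity Fc receptor that couples bound immune complexes to SHIP-1, was at 2.82 RPKM in Nedd4-/- and 5.94 RPKM in Nedd4+/+ cells (-0.86, relative -0.55). Set against Cd79a in the same library, Cd22 stood at 1.72 in Nedd4-/- and 3.53 in Nedd4+/+ cells, Fcgr2b at 0.181 in Nedd4-/- and 0.427 in Nedd4+/+, and Cd72 at 0.580 in Nedd4-/- and 0.368 in Nedd4+/+. Against Cd79a, 96.9% of tested genes were lower in Nedd4-/-, and against Cd79b 73.2% were. Per unit of Cd79b, Cd22 stood at 0.173 in Nedd4-/- and 0.267 in Nedd4+/+ cells, Fcgr2b at 0.0181 in Nedd4-/- and 0.0324 in Nedd4+/+, and Cd72 at 0.0583 in Nedd4-/- and 0.0279 in Nedd4+/+. The direction for each receptor was that seen with Cd79a, with a smaller difference for Cd22 and Fcgr2b and a larger one for Cd72.

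The Fc receptor-like genes are neighbours on chromosome 3 in part. Fcrl5, a receptor with both inhibitory and activating motifs, was at 2.66 RPKM in Nedd4-/- and 8.09 RPKM in Nedd4+/+ cells, a log2 ratio of -1.31 (relative -0.999, counting interval without pseudocount -1.83 to -1.38). Fcrl1, its activating relative, was at 2.16 RPKM in Nedd4-/- and 5.35 RPKM in Nedd4+/+ cells, a log2 ratio of -1.01 (relative -0.69, counting interval -1.62 to -1.01). The nearest tested genes on either side of the pair were less far from the bulk, with Cd1d1 at a relative value of 0.02 and Etv3 at -0.34. Fcrla, an intracellular family member on chromosome 1, was at 0.870 RPKM in Nedd4-/- and 1.14 RPKM in Nedd4+/+ cells, with a counting interval of -1.04 to 0.20 that includes no difference.

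Summed over Cd22, Cd72, Fcgr2b, Siglecg and Fcrl5, inhibitory receptor transcripts stood at 49.4 RPKM in Nedd4-/- and 77.0 RPKM in Nedd4+/+ cells. Divided by the sum of Cd79a and Cd79b, they were at 0.289 in Nedd4-/- and 0.390 in Nedd4+/+ cells, a factor of 0.740. The receptor sum in Nedd4-/- was 0.641 times that in Nedd4+/+, the chain sum 0.866 times and the RPKM sum of all genes 0.779 times. The chains thus stood above the sum of all genes, which by itself lowers the factor. Without Cd22 the factor was 0.931 and without Cd72 it was 0.648, so it depended on the receptors summed. The makeup of the sum differed as well: Cd72 made up 18.3% of it in Nedd4-/- and 6.64% in Nedd4+/+ cells, and Fcrl5 made up 5.39% in Nedd4-/- and 10.5% in Nedd4+/+ cells.

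**Figure D3:**
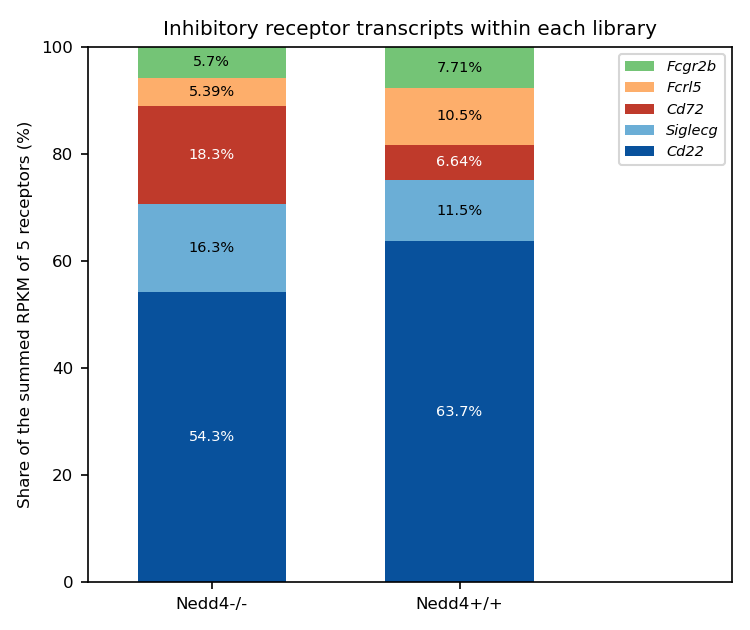
Share of each of 5 inhibitory receptors in their summed RPKM, in percent, for the Nedd4-/- library (left) and the Nedd4+/+ library (right). Cd22 holds 54.3% in Nedd4-/- and 63.7% in Nedd4+/+, while Cd72 holds 18.3% in Nedd4-/- and 6.64% in Nedd4+/+.

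The phosphatases and the inhibitory adaptor stayed near the bulk of genes. Ptprc, the receptor phosphatase CD45 that activates Src-family kinases, was at 30.7 RPKM in Nedd4-/- and 51.1 RPKM in Nedd4+/+ cells (-0.72, relative -0.40). Ptpn6, which encodes SHP-1, was at 29.1 RPKM in Nedd4-/- and 42.1 RPKM in Nedd4+/+ cells (-0.52, relative -0.21). Its ratio to Syk, a kinase it opposes, was 2.87 in Nedd4-/- and 2.03 in Nedd4+/+ cells. Inpp5d, which encodes SHIP-1, was at 24.2 RPKM in Nedd4-/- and 28.2 RPKM in Nedd4+/+ cells (-0.21), and its ratio to Pik3cd, whose lipid product it removes, was 1.83 in Nedd4-/- and 1.38 in Nedd4+/+. Dok3, an adaptor that brings SHIP-1 to the receptor, was at 1.62 RPKM in Nedd4-/- and 1.70 RPKM in Nedd4+/+ cells (-0.04). Most tested genes had a higher ratio than these partners, 97.6% than Syk and 82.4% than Pik3cd, so the ratios of Ptpn6 and Inpp5d to them are in the direction of most genes. Sla, the adaptor that targets receptor complexes for degradation, stood at 0.272 times Syk in Nedd4-/- and 0.511 times Syk in Nedd4+/+ cells.

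**Figure D4:**
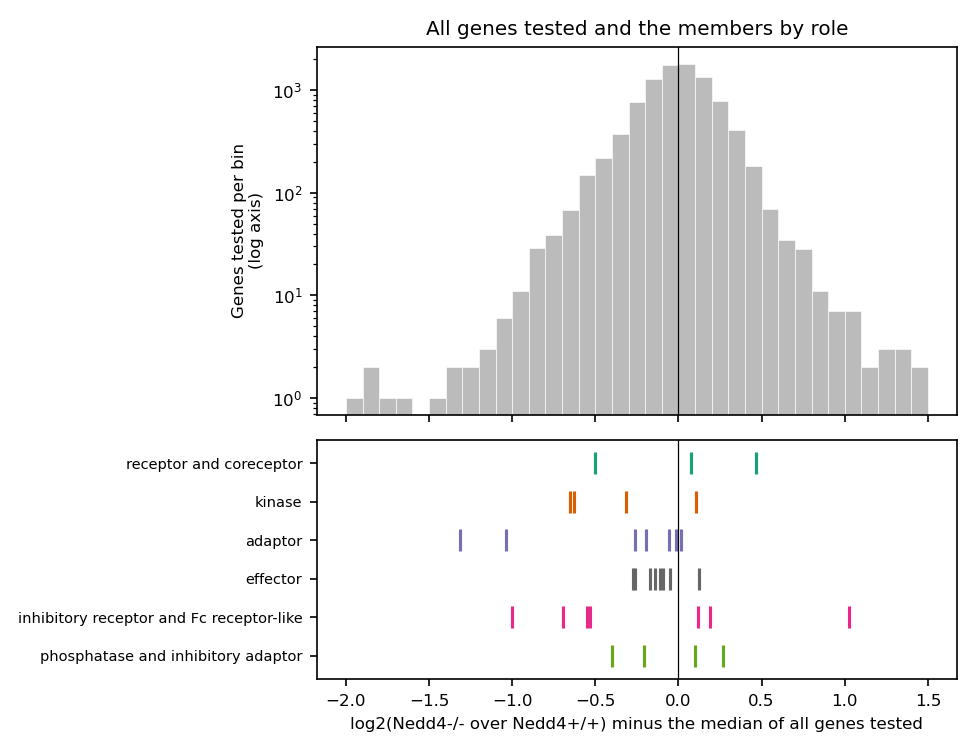
Above, the number of genes (log axis) per 0.1 of log2 ratio (Nedd4-/- over Nedd4+/+, RPKM + 1) minus the median, for all 9405 tested genes except 11 outside the plotted range. Below, 1 tick for each of the 33 tested members by role. Effectors lie close together near 0, adaptors reach the lower tail, and inhibitory receptors with Fc receptor-like genes reach both tails.

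Other genes of the pathway mostly kept to the bulk. Of 76 listed genes in the tables, 59 were tested, of which 1 (1.69%) was at least 2-fold lower and 0 at least 2-fold higher, near the 1.15% and 0.138% of all tested genes. Their median log2 ratio was -0.36 (relative -0.04). The 1 was Cd38, an ectoenzyme and coreceptor, at 1.29 RPKM in Nedd4-/- and 5.18 RPKM in Nedd4+/+ cells (-1.43, relative -1.12). Next came Fcer2a, the low-affinity IgE receptor CD23, which was higher, at 13.5 RPKM in Nedd4-/- and 11.0 RPKM in Nedd4+/+ cells (relative 0.58). Itpr3, a calcium release channel, was at 3.95 RPKM in Nedd4-/- and 7.95 RPKM in Nedd4+/+ cells (relative -0.54), and Pik3cg, a catalytic subunit of phosphoinositide 3-kinase, at 1.35 RPKM in Nedd4-/- and 3.13 RPKM in Nedd4+/+ (relative -0.50). The inhibitory phosphatase gene Ptpn22 had a relative value of -0.48, as did the adaptor gene Themis2, and the tetraspanin gene Cd53 had -0.45. Above the median were the adaptor gene Dok2 (0.48), Blk, a Src-family kinase gene close to Lyn (0.41), and the adaptor gene Lcp2 (0.40). Blk was at 5.11 RPKM in Nedd4-/- and 4.73 RPKM in Nedd4+/+ cells, so the Src-family kinases Blk and Lyn lay on opposite sides of the median.

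Antibody-secreting cell genes differed between the same libraries. All 7 tested of 8 plasmablast genes were below the median of all genes, and their levels summed to 236 RPKM in Nedd4-/- and 455 RPKM in Nedd4+/+ cells. Igj, the joining chain, was at 96.4 RPKM in Nedd4-/- and 216 RPKM in Nedd4+/+ cells, and Irf4 at 35.8 RPKM in Nedd4-/- and 72.1 RPKM in Nedd4+/+. Prdm1, the master regulator of secretion, was at 3.78 RPKM in Nedd4-/- and 7.97 RPKM in Nedd4+/+. Relative values were -1.05 for Derl3, -0.33 for Xbp1, -0.18 for Sdc1 and -0.008 for Slamf7, so the difference was uneven. Tnfrsf17, not tested, was at 0.397 RPKM in Nedd4-/- and 0.288 RPKM in Nedd4+/+. In bulk RNA, fewer cells of a type and less RNA per cell cannot be told apart, and the part of this difference in the members' values was not tested. Of the markers of other cells, the 14 T cell genes summed to 7.48 RPKM in Nedd4-/- and 6.66 RPKM in Nedd4+/+ cells, of which Cd247 gave 3.04 RPKM in Nedd4-/- and 4.60 RPKM in Nedd4+/+. The 12 myeloid genes in the tables summed to 11.9 RPKM in Nedd4-/- and 11.7 RPKM in Nedd4+/+, of which Ly6c1 gave 7.36 RPKM in Nedd4-/- and 9.20 RPKM in Nedd4+/+. Markers of natural killer cells, mast cells and basophils and erythroid cells and megakaryocytes summed to 1.51, 0.909 and 3.15 RPKM in Nedd4-/- and 0.823, 0.566 and 2.93 RPKM in Nedd4+/+ cells. Apart from Cd247, every T cell gene listed was higher in Nedd4-/-, as was every myeloid gene but Ly6c1 and Itgam. Genes with a mean under 0.5 RPKM likewise had the higher median in Nedd4-/-, at 0.244 RPKM against 0.117 RPKM in Nedd4+/+. None of these markers was listed at 0, and the defining T cell gene Cd3e was at 0.371 RPKM in Nedd4-/- and 0.107 RPKM in Nedd4+/+.

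The kb upstream of each gene gave a second readout. Its level, in RPKM, was recovered from the deposited ratio of the window to the gene, and log2 ratios of windows are Nedd4-/- over Nedd4+/+ with 0.1 RPKM added, for windows that averaged at least 0.2 RPKM. Of 24 member windows tested, 4 were at least 2-fold lower, where 0.794% of 11837 windows were, and 3 at least 2-fold higher, where 19.8% were. Relative to the median of all windows, 7 were at least 2-fold lower (Syk, Csk, Sla, Pik3cd, Cd22, Ptprc and Dok3), where 5.68% of all windows were, and 0 at least 2-fold higher, where 6.5% were. The median log2 ratio was 0.41 over all windows and below 0.01 in size over the members, with 12 higher and 12 lower. Windows with much RNA were more often lower: of 2576 windows that averaged at least 0.8 RPKM, a limit chosen after the values were seen, 1.75% were 2-fold lower or more and 0.66% 2-fold higher or more. Of the member windows, 7 averaged that much, and all 4 that were at least 2-fold lower as deposited were among them.

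The lower windows lay upstream of Csk, Cd22, Ptprc and Sla. As deposited, their own levels were lower too, as were those of 93.9% of tested members. The window of Csk was at 1.35 RPKM in Nedd4-/- and 3.28 RPKM in Nedd4+/+ cells, a log2 ratio of -1.22, from 41.3 read pairs in Nedd4-/- and 136.5 in Nedd4+/+. That of Cd22 was at 0.489 RPKM in Nedd4-/- and 1.34 RPKM in Nedd4+/+ cells (-1.29), that of Ptprc at 1.04 RPKM in Nedd4-/- and 2.26 RPKM in Nedd4+/+ (-1.05), and that of Sla at 0.464 RPKM in Nedd4-/- and 1.34 RPKM in Nedd4+/+ (-1.35). In the annotation, exons of other transcripts of the same gene cover 18.3% of the Sla window, 17.3% of the Ptprc window and 54.6% of the Prkcb window. The windows at least 2-fold higher as deposited were those of Prkcb, Malt1 and Fcrl1, at 0.466, 0.623 and 0.390 RPKM in Nedd4-/- and 0.136, 0.232 and 0.110 RPKM in Nedd4+/+ cells. Those rest on few reads, with 5.67, 9.65 and 4.58 read pairs in Nedd4+/+. All 3 had lower gene levels, and none was called relative to the median of all windows. The window of Cd72 was near the median of all windows, with 0.387 RPKM in Nedd4-/- and 0.259 RPKM in Nedd4+/+ cells (0.44). The Bank1 window was under the limit, at 0.0827 RPKM in Nedd4-/- and 0.137 RPKM in Nedd4+/+.

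**Figure D5:**
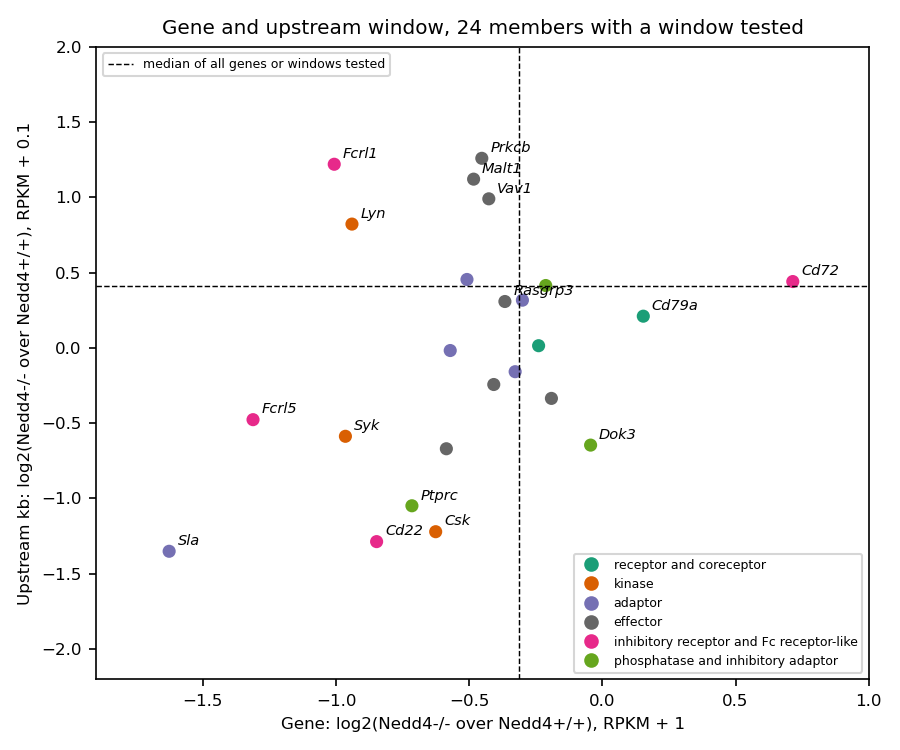
For the 24 members with a tested window, the log2 ratio (Nedd4-/- over Nedd4+/+) of the gene (RPKM + 1, horizontal) against that of its upstream kb (RPKM + 0.1, vertical), coloured by role, with dashed lines at the medians of all genes and of all windows. Sla, Cd22, Csk and Ptprc lie at the lower left, and Fcrl1 and Lyn at the upper left.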

How the data were processed

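RNA of cultured splenic B cells was sequenced after removal of ribosomal RNA, per the labels' protocols, in 1 Nedd4-/- and 1 Nedd4+/+ library. Per the submitters' processing notes, the tools include TopHat and Cufflinks, with build mm9. Not given in the sources used here are tool versions, the strand setting and the handling of multiply matching reads. Gene values are RPKM per the file headers, for 1 RefSeq transcript per gene, as the authors deposited them. The deposited upstream column is a ratio of the 1 kb window to the gene's RPKM plus 0.0001, as read from its values: the product came out in whole read bases, within 0.05, for 100% of 20742 windows under 1 RPKM in Nedd4-/- and 99.99% of 20097 in Nedd4+/+. That product was used as the window's level in place of the deposited value.

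Members, lists, pairs of genes and motifs were chosen with earlier results of these data known. All values were computed over the whole table in Python 3.11.15 with NumPy 2.4.6, pandas 2.3.3 and SciPy 1.17.1, and the calculation was tested on simulated data. Each tested member is named, and of the other pathway genes the 10 furthest from the median. Genes outside these rules were named after their values were seen. Read pairs came from RPKM, the transcript's length in GENCODE M21 (GRCm38) and a read length of 101 nt. Counting intervals are exact Clopper-Pearson 95% intervals and cover counting error only, since reads are not independent molecules. Overlapping and neighbouring genes come from the GRCm38 annotation, not mm9, so only names and shares are given. Alternatives tried were other pseudocounts, filters, scalings and fold thresholds.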

Additional observations from a re-analysis of the deposited data

How the results depend on the processing

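Depth limits the members least where levels are high: Fcrla rested on 36.4 read pairs in Nedd4-/- and 64.9 in Nedd4+/+. No paired analysis was possible because each genotype has 1 library. The number of members at least 2-fold lower was 4, and 7 with a pseudocount of 0.1 RPKM (Syk, Lyn and Fcgr2b added), 2 relative to the median of all genes and 2 when scaled to the RPKM sum of all genes, and 12 at a fold of 1.5, where 11.6% of all tested genes passed. It stayed at 4 without a filter and with the low-level background subtracted, and was 3 with a minimum mean of 5 RPKM. Relative to the median the count was 2, and 1 (Sla) against genes within 2-fold in level, where Bank1 was at -0.96. Cd72 was higher by at least 2-fold under each of these centrings. With the low-level background subtracted, an alternative added after the data were seen, Fcrl5 also passed. The median of the members was -0.48, and -0.17 relative to the median and -0.16 with the RPKM sum. Other pathway genes at least 2-fold lower were 1, and 2 with a pseudocount of 0.1 RPKM, 0 with a minimum of 5 RPKM and 9 at a fold of 1.5. The factor of inhibitory receptors over chains of 0.740 was 0.561 with medians in place of sums, 0.931 without Cd22 and 0.648 without Cd72, the last pair added after the data were seen. Of the member windows, 4 were at least 2-fold lower, 7 when centred on the window median (added after the data were seen) and 0 with a pseudocount of 1 RPKM, which is near the windows' own levels. At 2-fold, 1.15% of all tested genes were lower as deposited and 0.223% relative to the median, as were 0.794% and 5.68% of all windows. Apart from the fold of 1.5, no such share is given for the other settings, so those counts have no background to be read against.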
